A study of Mus musculus with 12 samples.

Results

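The ADAMTS genes (a disintegrin and metalloproteinase with thrombospondin motifs) encode secreted zinc proteases of the extracellular matrix. The 7 genes described here were Adamts1, Adamts2, Adamts4, Adamts5, Adamts9, Adamts10 and Adamts15, and every probe that carries one of these symbols was taken. This gave 11 of the 21004 probes in the normalized table, and 13 of the 45281 probes on the array. The 2 probes outside the table, 1 for Adamts1 and 1 for Adamts10, were detected on 0 of 12 arrays at a detection p under 0.05 and are not described further.

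ADAMTS proteases are made as inactive precursors that proprotein convertases trim, and they then cut matrix proteins at the cell surface or in the matrix. Adamts4 and Adamts5 encode the main aggrecanases of cartilage, which cut the core protein of aggrecan, the proteoglycan that lets cartilage hold water. The products of Adamts1, Adamts9 and Adamts15 can also cut aggrecan or its relative versican, while the product of Adamts2 removes the amino-terminal propeptide of fibrillar procollagens and that of Adamts10 acts on fibrillin microfibrils. Tissue inhibitor of metalloproteinases 3, encoded by Timp3, blocks the aggrecanases.

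RNA from the hip cartilage of C57BL6 mice aged 4 to 6 weeks was hybridized to Illumina mouse BeadChips, on which each probe is a 50-base oligonucleotide on coated beads. There were 4 groups of 3 arrays. Injury was made by tearing off the femoral epiphysis. By the study's methods, which do not mention the knockout, control cartilage was snap-frozen at 0 h, and injured cartilage was kept for 4 h in medium without serum. The methods describe the avulsion for control cartilage too, so the contrast called injury here sets tissue held in culture for 4 h against tissue frozen at once, and effects of injury and of culture cannot be told apart. Mapk9 encodes a c-Jun N-terminal kinase, a stress-activated kinase, and was inactivated in the mice labelled Mapk9 KO. The sources used here do not say how the allele was made, or in which cells it acts. Hips of several mice were pooled for each array, and nothing in the labels ties an array to single animals, so p-values measure the spread between pools. Between 16930 and 18969 probes were detected per array.

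The knockout was checked first. The brighter Mapk9 probe lay between 10.05 and 10.90 on the log2 scale on the 6 WT arrays and between 8.69 and 9.28 on the 6 Mapk9 KO arrays, so signal was reduced but detected. The dimmer Mapk9 probe was detected on 4 of 6 WT arrays and 0 of 6 Mapk9 KO arrays. As a check of the tissue label, all 12 measured chondrocyte markers were detected on every array. So were the 5 measured erythroid and the 7 neutrophil markers, and between 11 and 14 of the 14 skeletal muscle markers were detected on each array.

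The probes that carry the results below are shown here so that their targets can be told apart. Positions count from 1 at the start of the transcript record to which the array's annotation assigns the probe. Adamts1 probe 1 starts at base 2610 and Adamts1 probe 2 at base 755 of the same record, so they read distant stretches of 1 transcript.
Adamts1 probe 1: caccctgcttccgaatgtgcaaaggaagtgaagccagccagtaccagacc
Adamts1 probe 2: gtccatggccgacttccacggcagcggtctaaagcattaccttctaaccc
The 3 Adamts2 probes start at bases 3598, 3505 and 3631. Capitals mark the 17 bases that end probe 1 and begin probe 3, so these probes share target sequence and are not independent readings.
Adamts2 probe 1: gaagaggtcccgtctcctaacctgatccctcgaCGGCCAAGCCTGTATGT
Adamts2 probe 2: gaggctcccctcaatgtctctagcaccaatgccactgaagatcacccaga
Adamts2 probe 3: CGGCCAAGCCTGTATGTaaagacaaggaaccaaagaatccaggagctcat
Adamts9 probe 1 has no transcript accession in the annotation, and Adamts9 probe 2 starts at base 1201 of a predicted transcript. Both were assigned to the gene by symbol, whereas the other 9 probes matched a current RefSeq gene by accession.
Adamts9 probe 1: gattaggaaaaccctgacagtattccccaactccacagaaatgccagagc
Adamts9 probe 2: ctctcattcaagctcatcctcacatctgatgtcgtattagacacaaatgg
Probe sequences are those of the array's annotation in the deposited file.

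Injury was compared with control first in WT hips. Adamts4, Adamts1 probe 1 and Adamts9 probe 2 rose, and the 3 Adamts2 probes and Adamts10 fell, while Adamts5, Adamts15, Adamts1 probe 2 and Adamts9 probe 1 did not pass the threshold of a fold change above 2 with an adjusted p under 0.05. In all, 7 of 11 probes from 5 of 7 genes passed (3 higher and 4 lower), where 14.7% of all 21004 probes passed (7.55% higher and 7.14% lower). The median log2 difference of the 11 probes was -0.38, and that of all probes was -0.02. The groups did not overlap for 10 of the 11 probes, where this held for 41.2% of all probes. By the methods' t-test with adjustment only Adamts1 probe 1 and Adamts9 probe 2 passed in WT, where 1624 of all 21004 probes passed. Adamts4 and the Adamts2 probes had adjusted p between 0.0582 and 0.0748 by this t-test.

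The same comparison in Mapk9 KO hips gave nearly the same division. Adamts4, Adamts1 probe 1 and Adamts9 probe 2 rose, and the 3 Adamts2 probes and Adamts15 fell, so that 7 of 11 probes from 5 of 7 genes passed (3 higher and 4 lower), where 18.7% of all probes passed (9.59% higher and 9.14% lower). The median log2 difference of the 11 probes was -0.11, beside -0.02 for all probes. The groups did not overlap for 7 of the 11 probes, where this held for 49.7% of all probes. Changes of transcript level in a whole tissue cannot tell fewer cells of a type from less RNA per cell.

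**Figure D1:**
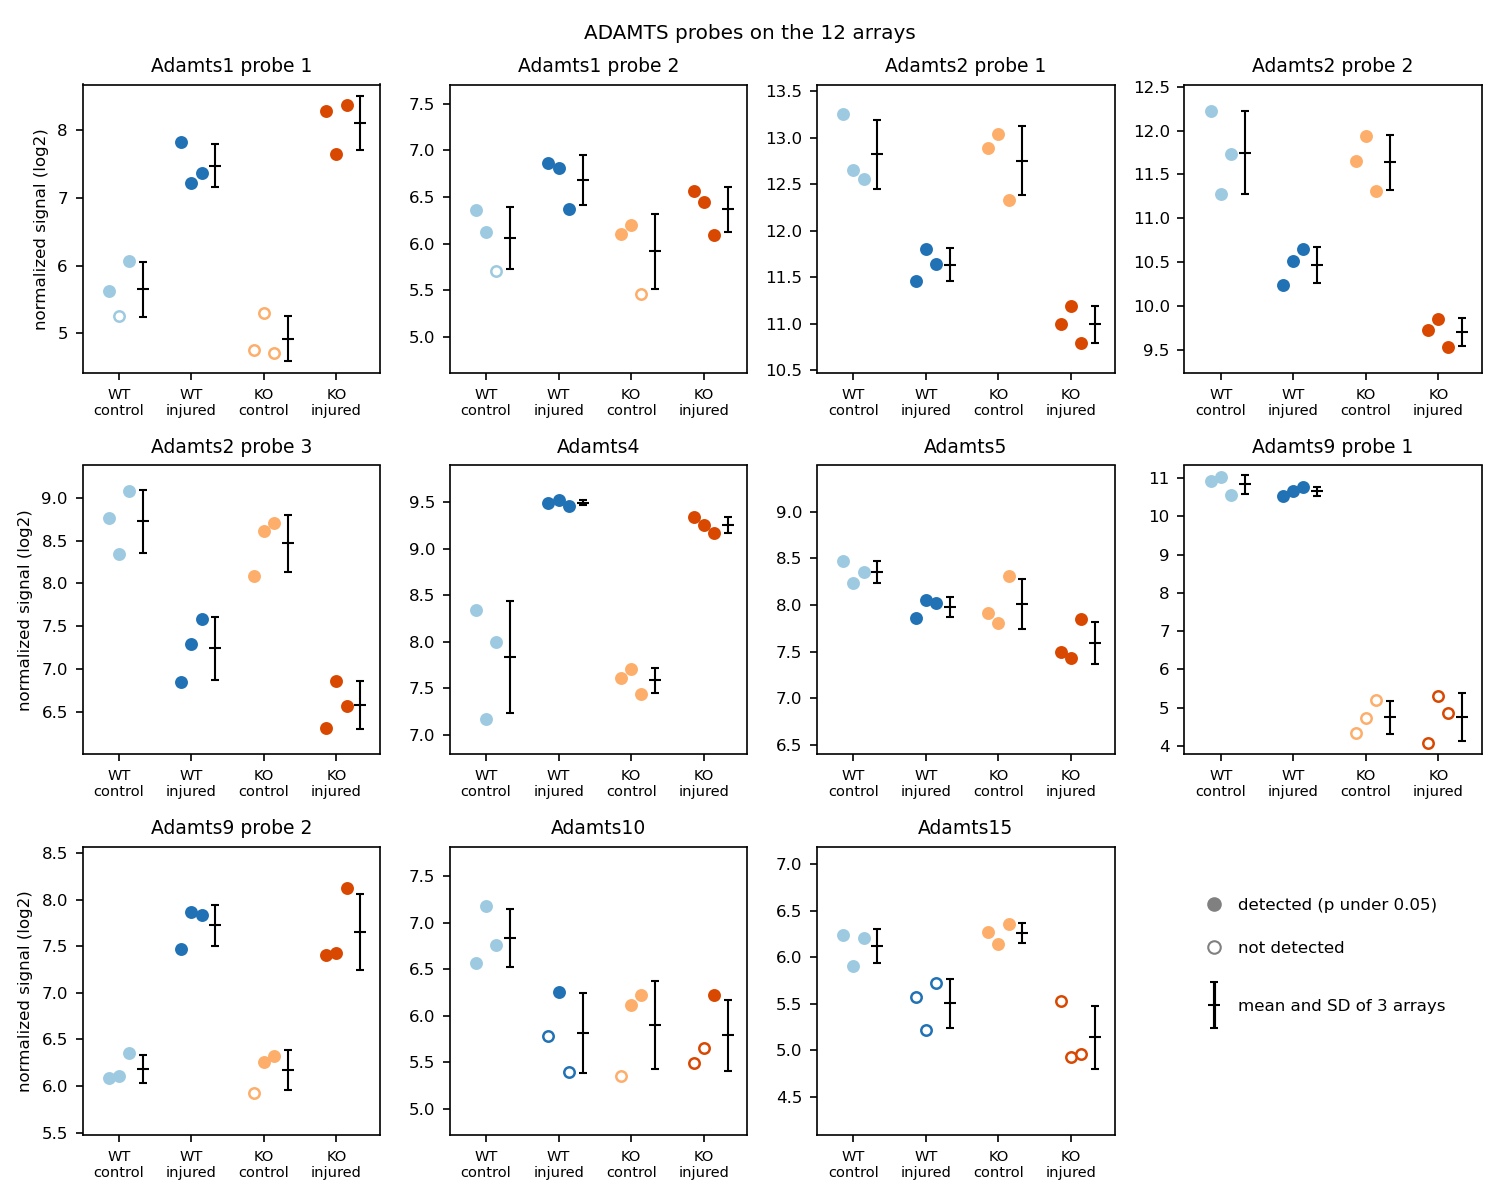
Normalized log2 signal of the 11 ADAMTS probes on each of the 12 arrays, 1 panel per probe with its own vertical axis that does not start at 0. Points are arrays, open points were not detected, and bars are the mean and SD of 3 arrays; Adamts4 sits higher in both injured groups, Adamts2 lower, and Adamts9 probe 1 is near 11 in WT and near 5 in Mapk9 KO.

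Adamts4, the aggrecanase gene known to respond to inflammatory cytokines, read 8.34, 7.17 and 7.995 on the WT control arrays and 9.49, 9.52 and 9.46 on the WT injured arrays. The Mapk9 KO arrays read 7.61, 7.71 and 7.44 in control and 9.35, 9.25 and 9.17 after injury. Every injured array lay above every control array in both genotypes, and the injured arrays lay closer together than the WT control arrays. Injured exceeded control by 1.66 on the log2 scale (SE 0.28, limma adjusted p = 0.00234), or 3.16-fold, in WT. In Mapk9 KO it was 1.67 (SE 0.17, limma adjusted p = 2.63e-05), or 3.19-fold. The difference between the 2 injury changes was 0.01 (95% confidence interval -0.71 to 0.74, limma adjusted p = 0.994). The changes are not shown to be equal, since the interval holds differences in both directions.

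Adamts5, the other main aggrecanase gene, read 8.47, 8.24 and 8.36 in WT control and 7.86, 8.06 and 8.02 in WT injured. On the Mapk9 KO arrays the probe read 7.91, 7.81 and 8.31 in control and 7.49, 7.43 and 7.85 after injury. The WT groups did not overlap, with the injured arrays lower, while the Mapk9 KO groups overlapped, since the third injured array lay above the second control array. Taken by replicate number, injured minus control was -0.61, -0.18 and -0.34 in WT and -0.42, -0.38 and -0.46 in Mapk9 KO. The log2 difference was -0.38 (SE 0.19, 95% interval -0.80 to 0.04, limma adjusted p = 0.178) in WT. It was -0.42 (SE 0.20, 95% interval -0.87 to 0.02, limma adjusted p = 0.125) in Mapk9 KO. Neither interval held a rise of the size measured for Adamts4. The raw intensity file names this probe after a locus similar to Adamts5 rather than Adamts5 itself, so signal from a near copy could not be separated.

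Adamts1 encodes a protease with activity on versican and aggrecan. Its probe 1 read 5.62, 5.25 and 6.06 in WT control and 7.83, 7.23 and 7.36 in WT injured. It read 4.75, 5.30 and 4.71 in Mapk9 KO control, where it was not detected on any array, and 8.29, 7.64 and 8.38 in Mapk9 KO injured. In both genotypes the injured arrays lay above all control arrays. On the log2 scale the rise was 1.83 (SE 0.26, limma adjusted p = 0.00082) in WT, and 0.87 with quantile normalization and no background correction, which did not pass the fold limit. The probe was detected on 2 of 3 WT control arrays, and with a detection limit of 0.01 the WT rise had a bound of at least 1.995-fold. In Mapk9 KO it was 3.18 (SE 0.24, limma adjusted p = 3.74e-06), where the undetected control arrays set only a bound, a signal at least 4.49-fold higher after injury. The bound used the lowest signal of a detected probe on each array, and at the stricter limit was at least 2.69-fold. Under the alternatives described below the Mapk9 KO log2 difference ranged from 1.48 to 3.41.

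Adamts1 probe 2, which reads a stretch nearer the start of the transcript record, moved less. It read 6.36, 6.12 and 5.70 in WT control and 6.86, 6.81 and 6.37 in WT injured, a log2 difference of 0.62 (SE 0.24, limma adjusted p = 0.0842). In Mapk9 KO it read 6.10, 6.19 and 5.46 in control and 6.56, 6.45 and 6.09 after injury, a log2 difference of 0.45 (SE 0.23, limma adjusted p = 0.151). The injured arrays lay above the control arrays in WT, and the groups overlapped in Mapk9 KO. Both Adamts1 probes had a positive difference in both genotypes, but the rise of Adamts1 rests on probe 1.

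Adamts9, which encodes a large protease active on versican and aggrecan, gave different results on its 2 probes. Probe 2 read 6.09, 6.11 and 6.35 in WT control and 7.48, 7.87 and 7.83 in WT injured. Readings in Mapk9 KO were 5.92, 6.26 and 6.32 in control and 7.41, 7.43 and 8.12 after injury. All injured arrays lay above all control arrays in both genotypes. The rise on the log2 scale was 1.54 (SE 0.20, limma adjusted p = 0.000548), or 2.91-fold, in WT. It was 1.49 (SE 0.23, limma adjusted p = 0.000468), or 2.80-fold, in Mapk9 KO. With quantile normalization and no background correction the differences were 0.84 and 0.80 and no longer passed the fold limit. Its control signal lay near background, and with a detection limit of 0.01 the bounds were at least 2.38-fold in WT and 1.98-fold in Mapk9 KO.

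Adamts9 probe 1 did not pass for injury and differed between the genotypes. It read 10.93, 11.03 and 10.55 in WT control and 10.53, 10.67 and 10.76 in WT injured, where the groups overlapped and the log2 difference was -0.19 (SE 0.21, limma adjusted p = 0.559). In Mapk9 KO it was not detected on any array, at 4.33, 4.74 and 5.19 in control and 4.09, 5.31 and 4.87 after injury. No injury change can be given for an undetected probe. The 2 Adamts9 probes thus differed from each other in both contrasts, and which transcripts probe 1 reads is not given in the annotation.

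Adamts15, an aggrecanase gene, read 6.24, 5.91 and 6.21 in WT control and 5.58, 5.21 and 5.73 in WT injured. Its Mapk9 KO values were 6.27, 6.14 and 6.35 in control and 5.53, 4.92 and 4.96 after injury. It was detected on all control arrays and on 0 of 6 injured arrays, which lay below the control arrays in both genotypes. The log2 difference was -0.61 (SE 0.22, limma adjusted p = 0.0620) in WT, a signal at least 1.21-fold lower. In Mapk9 KO it was -1.12 (SE 0.20, limma adjusted p = 0.00144) and passed, with a bound of at least 1.32-fold lower. With no background correction and quantile normalization the Mapk9 KO difference was -0.36, and with normexp correction it was -0.89, so the call of Adamts15 was lost.

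Adamts2, the procollagen N-proteinase gene, fell on all of its probes. Probe 1 read 13.25, 12.65 and 12.56 in WT control and 11.46, 11.81 and 11.64 in WT injured. Mapk9 KO arrays read 12.89, 13.04 and 12.33 in control and 10.998, 11.19 and 10.79 after injury. The injured arrays lay below all control arrays in both genotypes on each of the 3 probes. The log2 differences of probes 1, 2 and 3 were -1.18 (SE 0.24), -1.28 (SE 0.26) and -1.49 (SE 0.26) in WT, with limma adjusted p of 0.00512, 0.00584 and 0.00274. In Mapk9 KO they were -1.76 (SE 0.22), -1.93 (SE 0.20) and -1.90 (SE 0.22), with limma adjusted p of 0.000113, 3.42e-05 and 7.41e-05. The fall was between 2.27-fold and 2.81-fold in WT and between 3.39-fold and 3.81-fold in Mapk9 KO. Without WT control replicate 1, the array with the highest probe 1 value, the WT difference of probe 1 was -0.97 (limma adjusted p = 0.0202) and no longer passed the fold limit.

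Adamts10, linked to fibrillin microfibrils, read 6.57, 7.18 and 6.76 in WT control and 5.78, 6.25 and 5.40 in WT injured. It was detected on 3 of 3 WT control arrays and 1 of 3 WT injured arrays, and the groups did not overlap. Its values in Mapk9 KO were 5.36, 6.12 and 6.22 in control and 5.49, 5.66 and 6.22 after injury, and the groups overlapped. The log2 difference was -1.02 (SE 0.26, limma adjusted p = 0.0178) in WT and passed narrowly. With a detection limit of 0.01 the WT fall had a bound of at least 1.27-fold. In Mapk9 KO it was -0.11 (SE 0.27, limma adjusted p = 0.792). The WT call was lost with the array medians subtracted (-0.97), with normexp correction (-0.93) and with no background correction (-0.40), and without WT control replicate 2 (-0.85), WT injured replicate 1 (-1.01) or WT injured replicate 3 (-0.82).

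**Figure D2:**
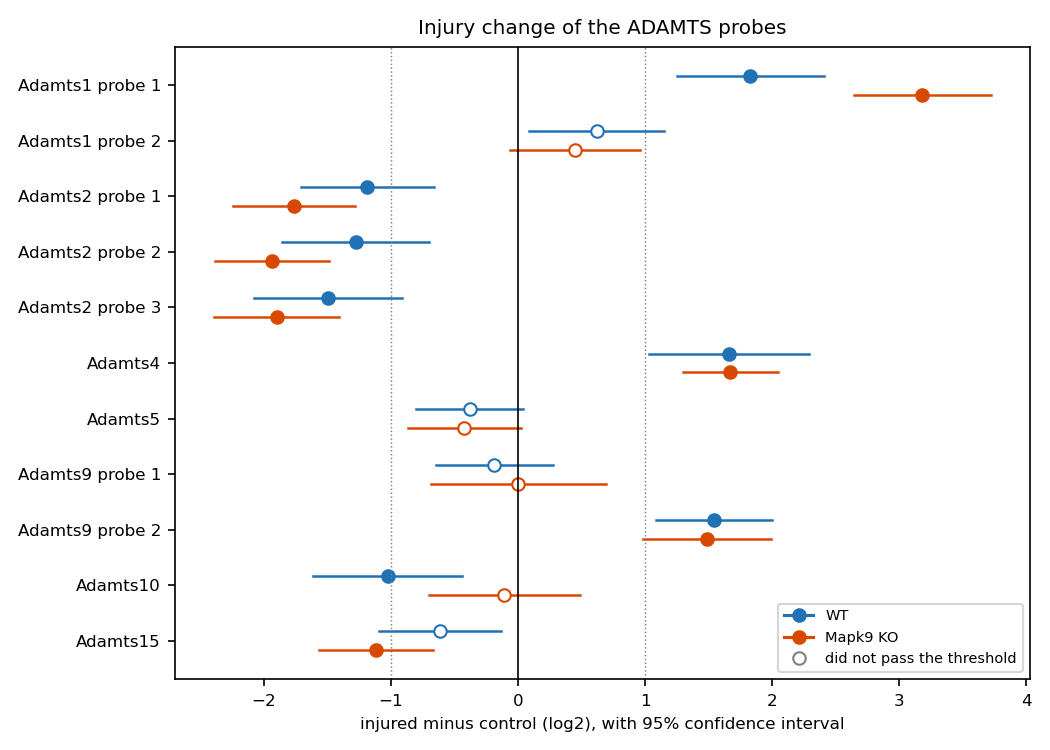
Injury change (injured minus control, log2) of the 11 ADAMTS probes with 95% confidence intervals, in WT and Mapk9 KO, 3 arrays against 3 each. Filled points passed the threshold and dotted lines mark a fold change of 2; Adamts1 probe 1, Adamts4 and Adamts9 probe 2 lie to the right and Adamts2 to the left in both genotypes.

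Levels of other cell types moved with injury. Each marker gene was read at its probe with the highest mean, unless another probe is named. The mean log2 level of the 14 skeletal muscle markers ranged from 10.92 to 12.59 on the WT control arrays and from 8.03 to 10.14 on the WT injured arrays, and from 12.68 to 13.05 and from 8.54 to 9.78 in Mapk9 KO. Of these markers 12 of 14 fell in WT and 14 of 14 in Mapk9 KO. This was the direction of the Adamts2 calls in both genotypes, of the Adamts10 call in WT only and of the Adamts15 call in Mapk9 KO only. The mean of the 4 adipocyte markers also lay lower after injury, at 7.54 to 8.49 against 6.25 to 6.79 in WT and at 7.95 to 9.78 against 5.91 to 6.22 in Mapk9 KO. Of these 4 markers 1 fell in WT, Cfd at -3.65, and 3 fell in Mapk9 KO. The mean of the 12 chondrocyte markers lay higher, at 10.65 to 11.20 against 12.10 to 12.31 in WT and at 10.57 to 11.23 against 12.05 to 12.29 in Mapk9 KO, in the direction of Adamts4, Adamts1 probe 1 and Adamts9 probe 2. In each genotype 7 of the 12 chondrocyte markers rose and 0 fell. With any probe of a gene counted, 7 rose and 1 fell in WT, and 8 rose and 0 fell in Mapk9 KO. The 1 was Col11a1, which fell by 1.26 in WT at another probe. The mean of the 7 neutrophil markers lay at 12.65 to 13.27 against 13.71 to 13.93 after injury in WT and at 13.03 to 13.48 against 13.43 to 13.88 in Mapk9 KO, and 2 of 7 rose in each genotype. With any probe of a gene counted, 4 of the 7 neutrophil markers rose and 0 fell in each genotype. Of the 7 macrophage markers 4 fell in WT and 5 in Mapk9 KO by fitted values, while Cd14 rose by 5.01 in WT and by 5.33 in Mapk9 KO, and the list means overlapped. Both counts of falls include Fcgr1, for which no change can be given in WT. It was detected on 0 of 3 arrays in each WT group, 1 of 3 in Mapk9 KO control and 0 of 3 in Mapk9 KO injured. The part of these lists in the ADAMTS changes was not tested.

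**Figure D3:**
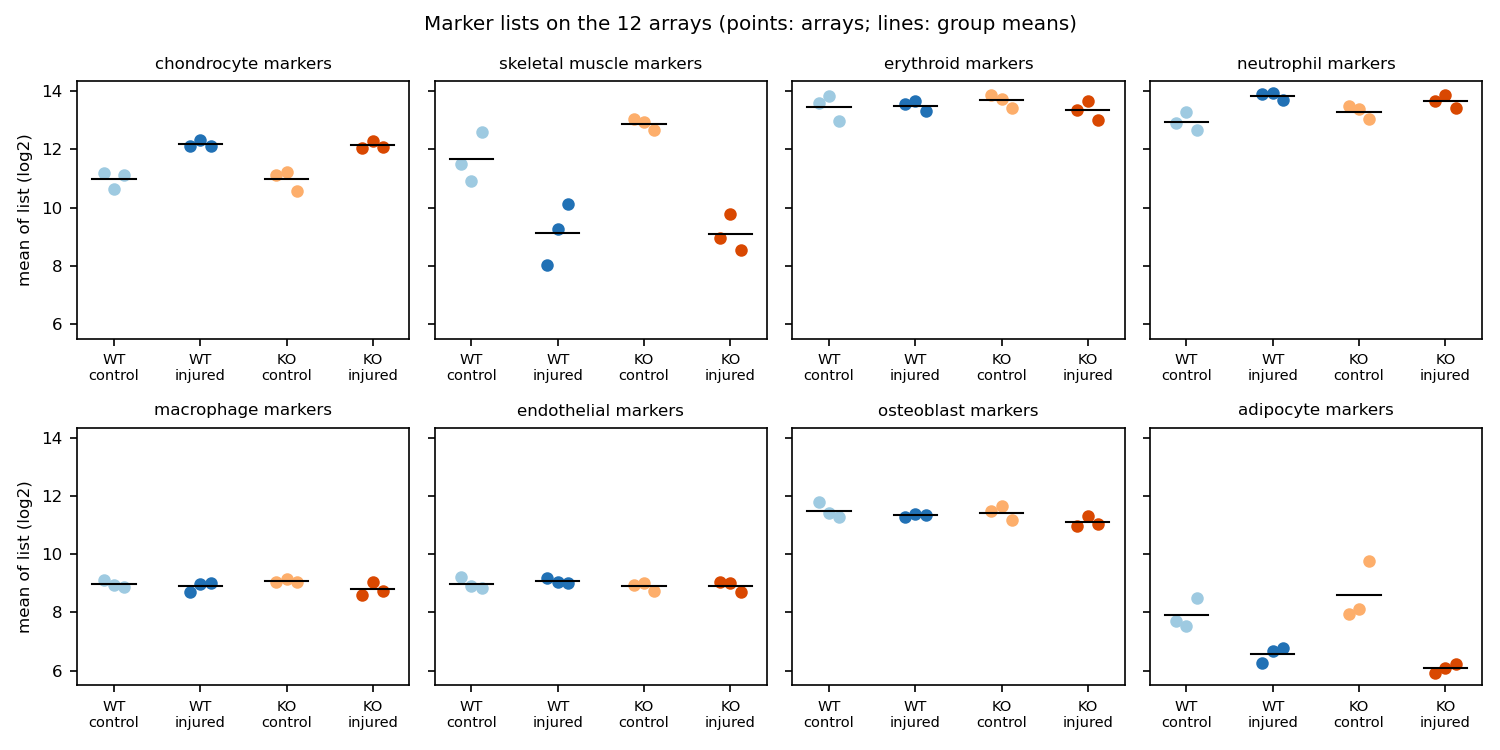
Mean log2 level of 8 cell type marker lists on each of the 12 arrays. Points are arrays and lines are group means; skeletal muscle and adipocyte markers sit lower and chondrocyte markers higher in the injured groups, neutrophil markers sit higher in WT injured and overlap in Mapk9 KO, and erythroid, macrophage, endothelial and osteoblast means overlap.

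The genotypes were then compared, first in the control hips. Adamts9 probe 1 was the only ADAMTS probe to pass, 1 of 11 where 0.119% of all probes passed (0.0905% lower). Its log2 difference, Mapk9 KO minus WT, was -6.08 (SE 0.26, limma adjusted p = 1.44e-06). Since the probe was not detected in Mapk9 KO, the bound is a signal at least 29.9-fold lower than in WT, or 17.9-fold with a detection limit of 0.01. These bounds hold for the deposited values. Under the alternatives described below the log2 difference ranged from -6.30 to -3.88. The methods' t-test gave an adjusted p of 0.170 in control and 0.224 in injured hips. By that t-test 0 of all 21004 probes passed in either genotype comparison. Adamts9 probe 2 differed by -0.01 (95% interval -0.48 to 0.45, limma adjusted p = 0.995) in the same hips.

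In the injured hips Adamts9 probe 1 was again the only ADAMTS probe to pass, 1 of 11 where 0.181% of all probes passed (0.11% lower). The log2 difference was -5.90 (SE 0.27, limma adjusted p = 1.69e-05), a signal at least 27.7-fold lower than in WT. It ranged from -6.17 to -3.56 under the alternatives. Adamts9 probe 2 differed by -0.07 (95% interval -0.57 to 0.43, limma adjusted p = 0.923). Over the whole table, 8 probes were detected on all 6 WT arrays and on 0 of 6 Mapk9 KO arrays, and 2 showed the opposite pattern. Adamts9 probe 1 was among the 8. Probes called between the genotypes in both the control and the injured hips numbered 18 of 21004.

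Among the other ADAMTS probes, differences between the genotypes did not pass. In the control hips Adamts10 differed by -0.94 (SE 0.28, limma adjusted p = 0.573), with every Mapk9 KO array below every WT array. Adamts1 probe 1 was detected on 2 of 3 WT and 0 of 3 Mapk9 KO control arrays, and no fold or bound is given for it (limma adjusted p = 0.662). In the injured hips the 3 Adamts2 probes differed by -0.64, -0.76 and -0.66 (limma adjusted p of 0.229, 0.192 and 0.287), and the groups did not overlap on probes 1 and 2. Adamts5 differed by -0.34 (95% interval -0.82 to 0.13) in control and by -0.39 (95% interval from -0.78 to just under 0) in injured hips, with limma adjusted p of 0.878 and 0.396. Adamts4 differed by -0.25 (95% interval -0.89 to 0.39) in control and by -0.24 (95% interval -0.57 to 0.10) in injured hips. The groups did not overlap for 2 of 11 probes in control hips and 5 of 11 in injured hips, all lower in Mapk9 KO, where this held for 10.8% and 16.8% of all probes in either direction and for 6.57% and 9.47% with Mapk9 KO lower.

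**Figure D4:**
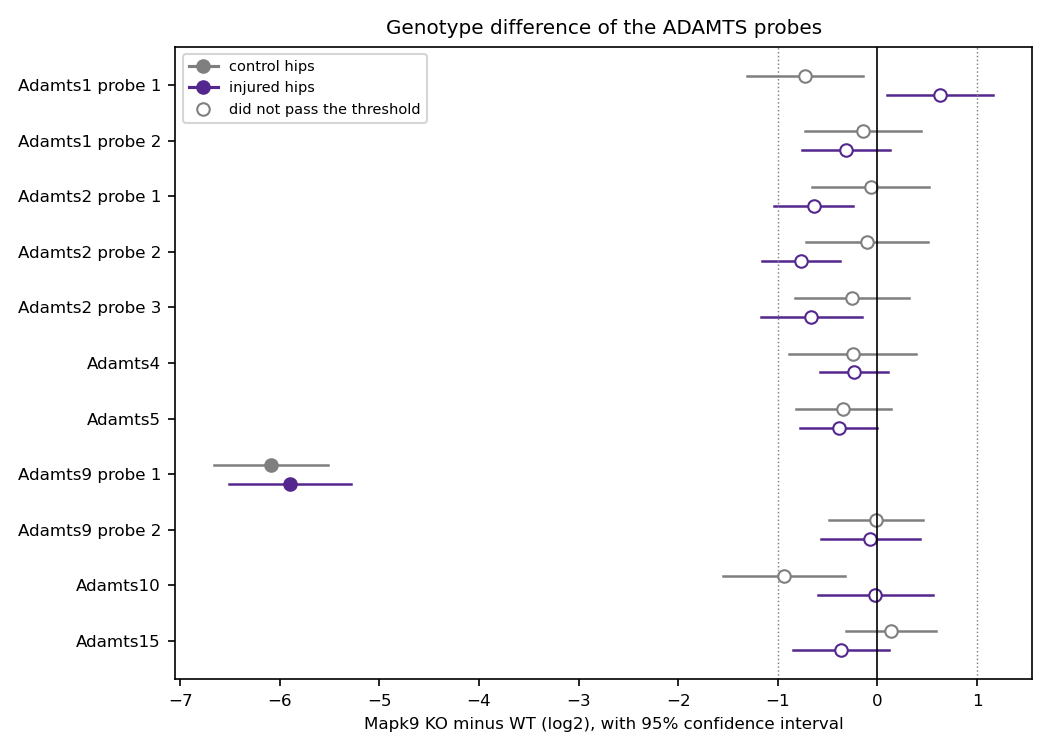
Genotype difference (Mapk9 KO minus WT, log2) of the 11 ADAMTS probes with 95% confidence intervals, in control and in injured hips, 3 arrays against 3 each. Filled points passed the threshold; only Adamts9 probe 1, with a fitted difference near -6 in both though undetected in Mapk9 KO, lies outside the dotted lines of a fold change of 2 and passed.

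With 3 arrays a group, the smallest two-sided p of exact permutation is 0.1, so these calls rest on limma's pooled spread. Mapk9 and Adamts2 lie on chromosome 11 in the RefSeq gene table (GRCm38.p6) with 12 protein-coding genes between them. Adamts9 lies on chromosome 6, and Adamts1 and Adamts5 are neighbours on chromosome 16 with 0 protein-coding genes between them. The mean of the skeletal muscle markers also differed between the genotypes in control hips, at 10.92 to 12.59 in WT and 12.68 to 13.05 in Mapk9 KO, with 0 of the 14 markers called. Its part in the genotype differences was not tested.

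Whether the injury change depended on the genotype was tested over all 12 arrays. None of the 11 ADAMTS probes passed (0 of 11 by limma with adjustment, 2 of 11 at an unadjusted p under 0.05), where 0% of all 21004 probes passed and 2088 had an unadjusted p under 0.05. The rise of Adamts1 probe 1 was 1.36 larger on the log2 scale in Mapk9 KO than in WT (SE 0.38, 95% interval 0.55 to 2.16, limma adjusted p = 0.312), with the Mapk9 KO control arrays undetected. This value therefore rests on control signals that only a bound can replace, and it ranged from 0.62 to 1.58 under the alternatives. At Adamts1 probe 2 the difference was -0.17 (95% interval -0.90 to 0.56, limma adjusted p = 0.900). Adamts10 had a difference of 0.92 (SE 0.41, limma adjusted p = 0.475). The 3 Adamts2 probes differed by -0.57, -0.66 and -0.41 (limma adjusted p of 0.591, 0.544 and 0.750), toward a larger fall in Mapk9 KO, with 95% intervals that all held 0.

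For Adamts1, Adamts4 and Adamts5, the 3 other genes with the most similar pattern over the 12 arrays were found by the root mean square difference of the log2 values, each probe centred on its own mean. Those of Adamts1 probe 1 were Ak4 (0.219), Fgf2 (0.279) and Has2 (0.290), where the median over 18011 probes was 1.36. Has2 encodes a hyaluronan synthase and Fgf2 a fibroblast growth factor held in the cartilage matrix. For Adamts4 they were Sox5 (0.135), Thbs3 (0.145) and AW536289 (0.147), where the median was 0.925. Sox5 encodes a transcription factor of chondrocytes and Thbs3 a thrombospondin of the matrix. For Adamts5 they were Cdk7 (0.133), Dlgap4 (0.138) and Micall2 (0.139), where the median was 0.448. The points share the 12 arrays and the same injury contrast, and the measure does not separate injury, genotype and replicate differences.

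The other genes around the ADAMTS proteases were taken from lists, at the probe with the highest mean. Of the 7 other ADAMTS proteases measured of 12 listed, 0 rose and 2 fell in WT, and 1 rose and 2 fell in Mapk9 KO, with median differences of -0.32 and -0.38. Adamts6, Adamts8 and Adamts13 were not detected on all 3 arrays of any group, so the absence of a call says little for them. Adamts12, which encodes a protease that can degrade cartilage oligomeric matrix protein, fell by 1.82 on the log2 scale in WT and had a difference of -2.19 in Mapk9 KO, where it also fell. Adamts18 had fitted differences of -1.72 and -1.47 and was not detected on any injured array, bounds of at least 2.23-fold and 1.49-fold lower. Adamts3, a procollagen N-proteinase gene like Adamts2, was detected on 0 of 3 Mapk9 KO control arrays and 2 of 3 Mapk9 KO injured arrays, and on 1 of 3 in each WT group. It is the 1 gene counted as higher in Mapk9 KO, by its fitted values, and no fold is given for it because no bound above 1 could be set.

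Of the 6 ADAMTS-like proteins, which resemble the proteases but lack the catalytic domain, 1 rose and 1 fell in WT, and 1 rose and 2 fell in Mapk9 KO. Adamtsl2 rose by 1.36 on the log2 scale in WT and by 1.68 in Mapk9 KO. At its brighter probe Adamtsl1 had differences of -1.41 and -1.80 and was not detected after injury, bounds of at least 1.98-fold and 1.96-fold lower. Its other probe was at least 1.72-fold lower in WT, where it was not detected after injury, and had a difference of -0.92 in Mapk9 KO, which did not pass. Adamtsl4 passed in Mapk9 KO only, at -1.02, and had a difference of -0.69 in WT. Of the 6 inhibitors and clearance receptors measured, 1 rose and 0 fell in each genotype, and that 1 was Timp3. Timp3 rose by 1.43 (SE 0.22) in WT and by 1.60 (SE 0.17) in Mapk9 KO at its brightest probe. Another Timp3 probe rose by 2.14 in WT, and in Mapk9 KO, where it was not detected on any control array, its signal was at least 6.45-fold higher after injury. The third differed by 0.76 in WT and 0.23 in Mapk9 KO and did not pass.

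Of the 4 proprotein convertases 1 rose in each genotype, Pcsk6, by 1.01 in WT and 1.02 in Mapk9 KO, and 0 fell. Among the 4 measured hyalectan substrates and matrix partners, 3 rose in WT and 2 in Mapk9 KO, and 0 fell. Acan, which encodes aggrecan, rose by 2.03 (SE 0.39) in WT and by 2.18 (SE 0.21) in Mapk9 KO. Hapln1, the link protein that ties aggrecan to hyaluronan, rose by 1.36 in WT and by 1.98 in Mapk9 KO. Comp, which encodes cartilage oligomeric matrix protein, rose by 1.08 in WT, and its value of 1.00 in Mapk9 KO did not pass the fold limit. At its other probe Comp rose by 1.46 in WT and by 1.17 in Mapk9 KO. These 3 genes are also on the chondrocyte marker list. Vcan, which encodes versican, differed by 0.24 in WT and by -0.21 in Mapk9 KO, and neither passed. At 1 of its other 3 probes Vcan fell by 1.27 in WT.

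The procollagen genes around Adamts2 were mixed. Of the 8 measured, 1 rose and 1 fell in WT, and 1 rose and 3 fell in Mapk9 KO, with median differences of -0.74 and -0.90. Bmp1, the procollagen C-proteinase gene, did not pass at its brightest probe, but fell on 2 of its 4 probes in WT, by 1.15 and 1.05, and on 1 of them in Mapk9 KO, by 1.13. Col1a2, an alpha chain of type I collagen, fell in both genotypes, with differences of -1.46 in WT and -2.44 in Mapk9 KO. Pcolce2, an enhancer of procollagen C-proteinase, rose by 2.28 in WT and by 2.91 in Mapk9 KO. Pcolce, its relative, differed by -0.96 in WT, which did not pass, and fell by 1.59 in Mapk9 KO. Col1a1, the other alpha chain of type I collagen, differed by -0.01 in WT and fell by 1.04 in Mapk9 KO, and the difference between these changes did not pass (-1.03, limma adjusted p = 0.382). In the genotype comparisons 0 genes of any of these lists passed, in control or injured hips, and 0 passed for the interaction.

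**Figure D5:**
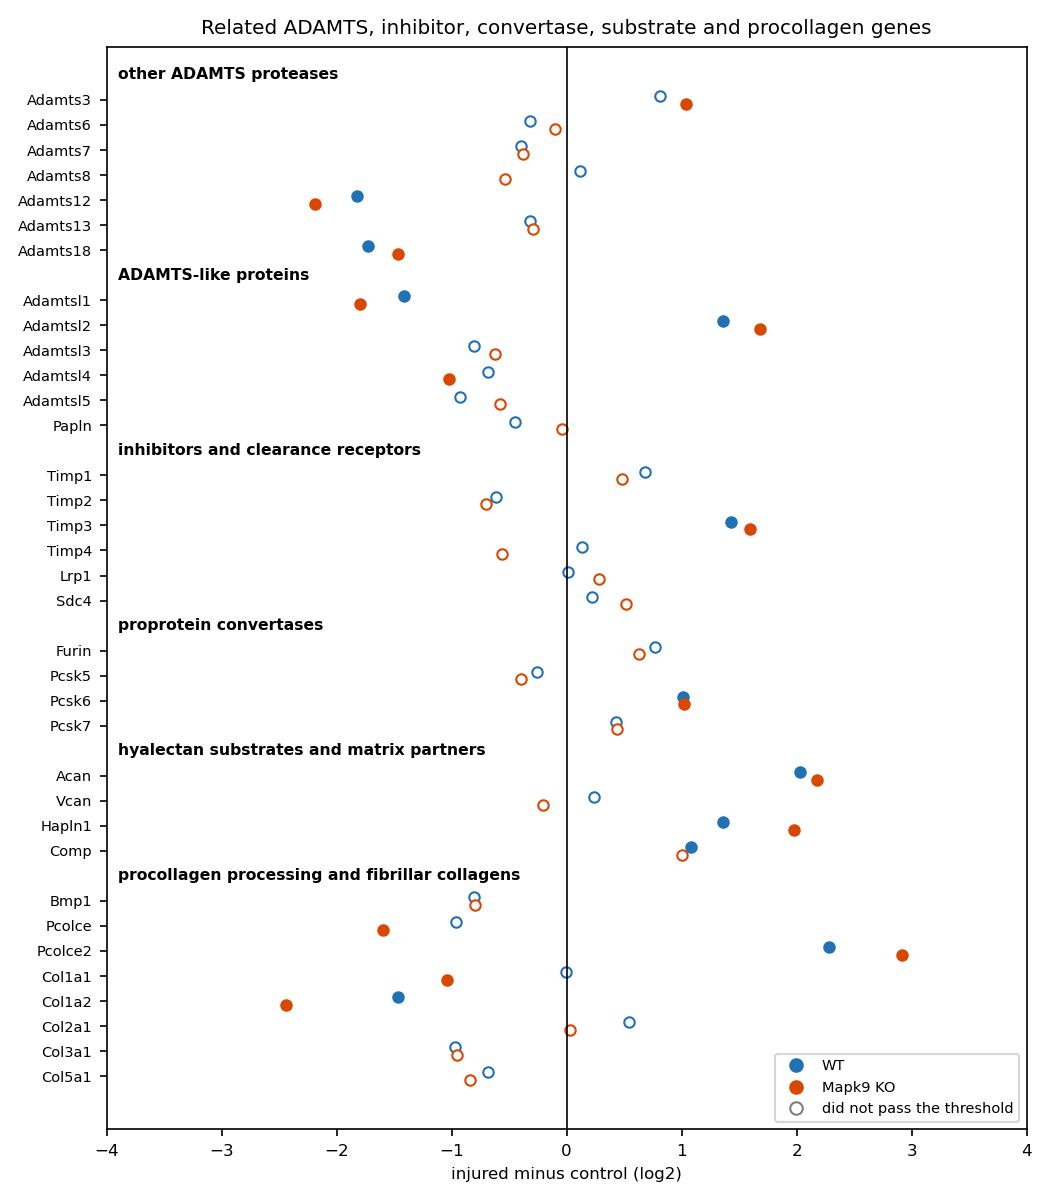
Injury change (injured minus control, log2) of the measured genes of 6 lists around the ADAMTS proteases, at the probe with the highest mean, in WT and Mapk9 KO, 3 arrays against 3 each. Filled points passed the threshold; Acan, Hapln1, Timp3, Adamtsl2, Pcsk6 and Pcolce2 lie to the right and Adamts12, Adamts18, Adamtsl1 and Col1a2 to the left in both genotypes.

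Promoters were searched for motifs of the c-Jun family, since c-Jun is a target of the Mapk9 kinase. RefSeq promoter sequence (GRCm38.p6) was matched for 3 of the 7 genes, Adamts1 and Adamts9, which rose on 1 probe each, and Adamts2, which fell. In the 250 bases before the start, searched on both strands, the AP-1 motif TGANTCA (held by 6.75% of 32851 promoters) and the full cyclic AMP response element TGACGTCA (held by 1.55%) were found in 0 of the 3. The 5 bases TGACG, which are part of the full element and were searched after the others, occurred once in Adamts1, 170 bases before the start, and once in Adamts9, 218 bases before the start. They did not occur in Adamts2, and 17.8% of all promoters held them. Both promoters are shown on the strand of the gene, with TGACG in capitals.
Adamts1, chr16:85803114-85803363, minus strand: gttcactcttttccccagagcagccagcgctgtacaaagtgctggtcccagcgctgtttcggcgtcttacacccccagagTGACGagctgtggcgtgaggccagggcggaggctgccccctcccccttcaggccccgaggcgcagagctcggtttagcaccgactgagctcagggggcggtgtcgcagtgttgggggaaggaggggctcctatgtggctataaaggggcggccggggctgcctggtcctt
Adamts9, chr6:92943535-92943784, minus strand: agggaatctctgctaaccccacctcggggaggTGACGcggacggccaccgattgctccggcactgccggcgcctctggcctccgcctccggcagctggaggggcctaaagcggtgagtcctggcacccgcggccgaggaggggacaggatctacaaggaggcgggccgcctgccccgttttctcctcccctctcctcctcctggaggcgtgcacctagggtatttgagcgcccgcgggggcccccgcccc
A match describes the letters in this window and is not evidence of binding.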

How the data were processed

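Bead signal intensities of 45281 probes were deposited uncorrected and not normalized, together with a detection p-value for every probe and array. The authors corrected them with negative control probes, normalized them with vsn (version not given in the sources used here) and deposited log2 values for 21004 probes. All 21004 probes were tested on the deposited log2 values in R 4.3.3 with limma 3.58.1 (lmFit, eBayes) and Benjamini-Hochberg adjustment. A call needed an adjusted p under 0.05 and a fold change over 2, except for the interaction, which needed the adjusted p alone. Injury and genotype comparisons used the 6 arrays compared, and the interaction all 12. Groups came from the labels. Probes of a gene were kept apart and numbered by mean signal. The fit was tested on simulated data.

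The genes named are the 7 ADAMTS genes, Mapk9, Acan and Timp3, up to 3 called genes with the largest WT changes per list, and the 3 most similar genes of Adamts1, Adamts4 and Adamts5. Adamts3, Adamts6, Adamts8, Adamts13, Adamtsl4, Vcan, Pcolce, Col1a1, Bmp1, Cd14, Cfd, Col11a1 and Fcgr1 were named beyond this rule, after their values were seen. The members and lists were chosen with earlier results of these data known. The number of arrays limits the precision. A probe undetected on a whole group (detection p of 0.05 or more) has only a bound, set against the lowest signal of a detected probe on each array, and calls used the fitted values.

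Arrays with the same replicate number deviated together from their group means, with correlations between 0.153 and 0.390 over 18 pairs, against -0.289 to 0.0825 over 36 other pairs. On this basis the replicate numbers were taken to pair the arrays. The main fits did not use this pairing, so the SEs, intervals and adjusted p given above are unpaired. It entered only as the replicate block among the alternatives. Alternatives were neqc (normexp with an offset of 16, then quantile normalization), quantile normalization with no background correction, subtraction of each array's median, a filter that kept probes detected on 3 or more arrays, neqc on all probes of the array, a fit of all 12 arrays, blocks for the replicate number or the number in the label code, the methods' t-test, no fold limit, a detection limit of 0.01 for the bounds, and leaving out each array.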

Additional observations from a re-analysis of the deposited data

How the results depend on the processing

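The 55 results of 11 ADAMTS probes in 5 comparisons were recomputed under the alternatives, which gave 913 values. Of these, 892 kept the call or its absence, 21 lost a call, 0 gained one, and 0 turned sign with a call, while 42 turned sign with no call in either. The count of 7 probes called for injury in WT fell to 4 with quantile normalization without background correction (1 higher and 3 lower) and to 2 with the methods' t-test after adjustment (2 higher and 0 lower). Over all probes these 2 settings lowered the WT calls from 3086 to 1140 and to 1624. By the t-test the single genotype call, Adamts9 probe 1, was lost in control hips (adjusted p = 0.170) and in injured hips (adjusted p = 0.224), so 0 were called in each. The same test called 0 of all 21004 probes in either genotype comparison, so the loss was not particular to this probe. With each array left out in turn, the calls ranged from 6 to 7 for injury in WT, stayed at 7 for injury in Mapk9 KO, at 1 for each genotype comparison and at 0 for the interaction. With the replicate block the calls numbered 7 for injury in WT, 7 for injury in Mapk9 KO, 1 and 1 for genotype and 0 for the interaction, and no ADAMTS call changed. Over all probes the same block raised the calls between genotypes in injured hips from 38 to 188 and the interaction from 0 to 112, while leaving out WT control replicate 3 raised the genotype calls in control hips from 25 to 412 and the interaction to 242. The cause was not tested. Adamts1 probe 1 and Adamts9 probe 2 lost the WT call without background correction (0.87 and 0.84), as Adamts9 probe 2 did in Mapk9 KO (0.80). Adamts10 also lost its WT call by the t-test and with all probes of the array, and Adamts15 its Mapk9 KO call with all probes. The number of arrays and, for Adamts1, Adamts9 probe 2, Adamts10 and Adamts15, signal close to background limit these values. With a detection limit of 0.01 the bounds of Adamts9 probe 1 were at least 17.9-fold lower in Mapk9 KO control and 17.4-fold in Mapk9 KO injured hips, and that of Adamts1 probe 1 in Mapk9 KO was at least 2.69-fold higher after injury.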
